A study of Homo sapiens with 402 samples.

Results

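The mercury dose series consisted of 16 of the 402 libraries of the study. They were chosen by their labels, as the libraries treated with mercury at 0.025, 0.25, 2.5 or 25 µM, with 4 libraries per dose, on a single cell plate. They were compared with the 15 water control libraries of that plate that carry the same plate barcode. Mercury at 25 µM was also compared with copper and with lead at 25 µM, 4 libraries each, of the same plate and barcode. The fit for these 2 metals also held the arsenic and cadmium libraries of that plate and barcode. The study exposed MCF10A, a non-tumorigenic and genetically unmodified human breast epithelial line, to a panel of chemicals in multi-well plates to see how expression changed with each exposure. Every library here came from cells of the same passage that were exposed for 48 hours. Sequencing libraries were made by plexWell, which marks the cDNA of a well with a barcode during tagmentation, ahead of pooling. The solvent was water, so the controls carry water and no metal, and the labels do not name the mercury salt. The replicates are described as biological, but all came from 1 line, so the p-values measure the spread between wells of that line.

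Mercury ions bind tightly to thiol and selenol groups. Cells answer thiol-reactive compounds mainly through the transcription factor NRF2, which escapes its sensor KEAP1 and switches on genes for glutathione and thioredoxin supply, for quinone and carbonyl reduction and for iron storage. Metals can also induce metallothioneins, small cysteine-rich proteins that bind them, through the factor MTF1, and damaged proteins induce heat shock genes. Selenoproteins carry selenocysteine, and several of them, the thioredoxin reductases and the glutathione peroxidases among them, keep thiols and peroxides in balance.

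Totals ran from 8.52 M to 20.9 M counts over the 16 mercury libraries. Controls 1 to 8 had 12.6 M to 23.9 M counts, and controls 10 to 16 had 1.93 M to 5.40 M. Mercury replicates 1 and 2 lay with controls 1 to 8 on the first principal component, which held 33.5% of the variance, and replicates 3 and 4 lay with controls 10 to 16. The 31 libraries were fitted with a term for these sets of replicate numbers, which the rule that chose the libraries had laid down. They are called set 1 (mercury replicates 1 and 2, controls 1 to 8) and set 2 (mercury replicates 3 and 4, controls 10 to 16). The labels do not say what the numbers stand for. Control 16, the shallowest library, stood apart from the others on the next components. The share of counts from genes of the mitochondrial genome was 10.4% to 11.4% in the controls of set 1 and 7.87% to 9.10% in those of set 2, and the mercury libraries had 9.65% to 11.9% and 7.29% to 8.56% in the same order. The basal keratin KRT5 had 1034 to 1346 CPM at 25 µM and 1062 to 1550 CPM in the controls, where CPM is counts scaled to a common TMM-adjusted library size of 1e+06. The immune markers were at 0 in every mercury library and summed to at most 0.398 CPM in a control. Fibroblast markers summed to 21.4 to 127 CPM at 25 µM and 22.1 to 145 CPM in the controls. In bulk libraries such as these, fewer cells of a type and less RNA per cell cannot be told apart.

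Over both sets together, more genes differed from the water controls at the higher doses. In set 2 alone the order was another, with 91, 88, 233 and 62 calls from 0.025 to 25 µM, and set 1 alone gave 1, 1, 1 and 29. In set 2 the controls had 1.93 M to 5.40 M counts and the mercury libraries 8.52 M to 20.9 M. Depth and treatment cannot be told apart in that set. Of 15966 genes tested, edgeR's quasi-likelihood test with Benjamini-Hochberg adjustment (called at an adjusted p under 0.05) called 0 genes (0%) at 0.025 µM and 0 (0%) at 0.25 µM. Genes with an unadjusted p under 0.05 numbered 1125 and 1165 at those doses, and DESeq2 called 7 and 12. With the replicate number as a block the count at 0.25 µM was 2. At 2.5 µM it called 6 genes (0.0376%), 5 higher (0.0313%) and 1 lower (0.00626%). Leaving out replicate 1, 2, 3 or 4 of every dose gave 14, 16, 18 and 3 calls at 2.5 µM, and DESeq2 gave 33. At 25 µM it called 61 genes (0.382%), of which 40 were higher and 21 lower. Without replicate 3 of every dose the count at 25 µM was 27, and without the term for the sets it was 16. All of the dose comparisons used the same 15 controls. Of the 44 called genes that the naming rule picked at 25 µM, 8 passed in each of the 14 alternative analyses run: FTL, NQO1, AKR1C1, AKR1C2, ALDH3A1, TRIM16L, EPHX1 and SELENOW.

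Of the 40 genes that rose at 25 µM, 21 were of the NRF2 list, which was chosen with earlier results of these data known. Of its 43 genes 41 were tested, and 21 rose and 0 fell, with 0.251% of all genes tested higher in this comparison. The median log2 fold change of the list was 0.28, against -0.00 over all genes tested. The 38 members above 0 included 17 that did not pass the test. Leaving out replicate 3 of every dose lowered the number that rose from 21 to 11, and leaving out the term for the sets lowered it to 8, while the median stayed between 0.25 and 0.42 over the alternatives. With the replicate number as a block 21 rose and 1 fell (MAFF). A fall of 1 member was also called without the filter on low counts (23 rose) and in the fit over the whole plate (18 rose). Without replicate 2 or replicate 4 of every dose 1 fell as well, and 19 and 18 rose. Set 1 alone gave 10 that rose, and libraries thinned to the depth of the shallowest gave 9, with 0 that fell in both.

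The smallest p-value belonged to FTL (chr19:48965301-48966878, GRCh38, GENCODE v29), which codes for the light chain of ferritin, the cell's iron store. The controls of set 1 had 1384 to 1769 CPM (median 1543) and those of set 2 had 944 to 1249 CPM (median 1178). The 4 libraries at 25 µM had 2625, 2252, 2614 and 2723 CPM, from replicate 1 to replicate 4. All 4 were above every control of either set, without overlap. The difference was 0.94 ± 0.07 on the log2 scale (fitted value ± SE; edgeR adjusted p = 2.40e-16), or 1.92-fold. At 2.5 µM the libraries had 2197, 2059, 1732 and 2128 CPM, and the fitted change was 0.60 ± 0.07 (adjusted p = 3.08e-08). At 0.25 µM the 4 values, 1363 to 1639 CPM, overlapped the controls. FTH1, the heavy chain of ferritin, rose by 0.26 ± 0.06 (adjusted p = 0.0262), and its replicate 2, at 6783 CPM, was inside the range of its controls. HMOX1, which breaks down heme, was not called. Its libraries at 25 µM had 6.28, 4.31, 6.03 and 1.63 CPM, against 1.44 to 12.7 CPM over all controls, and the fitted change was 0.21 ± 0.30.

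Quinone and carbonyl reduction was the role with most members called, 6 of 8. NQO1 (chr16:69706996-69726951), a quinone reductase, had 576 to 638 CPM in the controls of set 1 and 575 to 714 CPM in those of set 2. At 25 µM it had 871, 863, 1213 and 1199 CPM, all above every control, a change of 0.67 ± 0.06 (edgeR adjusted p = 1.50e-13). AKR1C2, an aldo-keto reductase that acts on steroids and carbonyls, had 623 to 786 CPM in the controls of set 1 and 185 to 305 CPM in those of set 2. Its 25 µM libraries had 1350, 1209, 1026 and 915 CPM, so each was above all controls although the sets began at different levels. The fitted change was 1.295 ± 0.11 (adjusted p = 4.18e-13), or 2.45-fold. AKR1C1 rose by 1.12 ± 0.11 and AKR1C3 by 0.83 ± 0.08. These 3 genes lie next to one another between chr10:4963253-4983283 (AKR1C1) and chr10:5035354-5107686 (AKR1C3) and are close in sequence, so how reads were divided among them is uncertain. AKR1B10, a related reductase of another branch, had 0.294 to 10.8 CPM over all controls and 16.3, 13.4, 15.2 and 11.8 CPM at 25 µM. ALDH3A1, an aldehyde dehydrogenase, had 91.6 to 133 CPM in the controls of set 1 and 88.1 to 160 CPM in those of set 2. At 25 µM it had 228, 169, 269 and 210 CPM, above all controls, a change of 0.95 ± 0.12 (adjusted p = 1.22e-07). CBR1 and CBR3, the carbonyl reductases of the list, were not called (0.15 ± 0.07 and 0.06 ± 0.35).

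**Figure D1:**
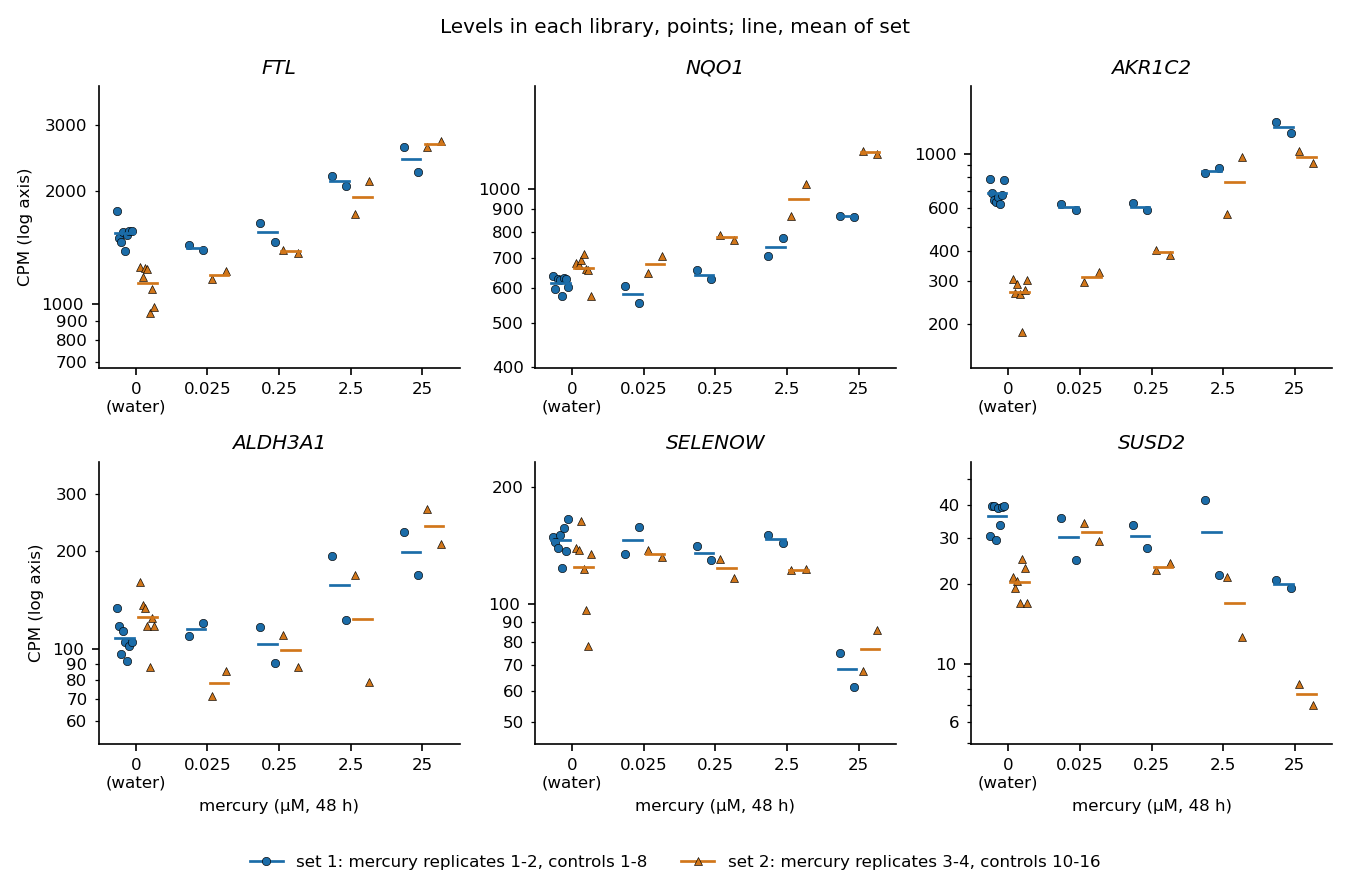
CPM of 6 genes in each library (log axis) against the mercury dose in µM, with set 1 as circles, set 2 as triangles and the mean of each set as a line. The 25 µM libraries lie above all 15 controls for FTL, NQO1, AKR1C2 and ALDH3A1, and below the controls of their own set for SUSD2; for SELENOW 1 library of set 2 lies within its controls.

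Glutathione genes moved unevenly. GCLC, the catalytic subunit of the enzyme that makes the first step of glutathione synthesis, rose by 0.56 ± 0.08 (edgeR adjusted p = 1.16e-06) and had all 4 libraries at 25 µM, 212 to 340 CPM, above the controls of their own set. Its modifier subunit GCLM had 89.0, 110, 156 and 149 CPM at 25 µM. Only the first of these was inside the range of its controls, and the gene was not called (0.38 ± 0.10, adjusted p = 0.0875). SLC7A11 (chr4:138164097-138242349), the cystine importer that feeds glutathione synthesis, had 13.6 to 25.8 CPM in the controls of set 1 and 26.7 to 63.7 CPM in those of set 2. It had 36.6, 39.4, 85.8 and 76.2 CPM at 25 µM, each above the controls of its set, a change of 0.86 ± 0.14 (adjusted p = 8.16e-05). GSR, which recycles oxidized glutathione, rose by 0.39 ± 0.10 (adjusted p = 0.047, and 0.0525 with the replicate block). Its call was also lost without control 16 (0.0529) and without replicate 1 (0.185), replicate 2 (0.0962) or replicate 3 (0.373) of every dose.

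In the thioredoxin system, TXN rose by 0.39 ± 0.07 and the peroxiredoxin PRDX1 by 0.23 ± 0.05, with all 4 libraries above the controls of their set in both. TXNRD1, the selenoprotein that reduces thioredoxin, was not called (0.29 ± 0.09, edgeR adjusted p = 0.164). Its libraries at 25 µM had 192 and 237 CPM in set 1, where the controls had 186 to 237, and 404 and 381 CPM in set 2, where the controls had 221 to 310. SRXN1, which repairs peroxiredoxins, was at 0.23 ± 0.23. In the NADPH supply, PGD of the oxidative pentose phosphate pathway rose by 0.38 ± 0.06, and TKT (0.22 ± 0.05) and TALDO1 (0.27 ± 0.06) of its other branch rose as well. ME1, malic enzyme, was at 0.20 ± 0.08. The conjugate exporters ABCC2 (0.64 ± 0.15, edgeR adjusted p = 0.0333) and ABCC3 (0.28 ± 0.07, adjusted p = 0.0478) also rose. So did the autophagy receptor SQSTM1 (0.27 ± 0.06) and TRIM16L (0.84 ± 0.10). DESeq2 called 18 members of the NRF2 list at 25 µM, and ABCC2, FTH1, AKR1B10 and GSR were not among them. NFE2L2, the gene of NRF2 itself, was at -0.04 ± 0.08 and KEAP1 at 0.10 ± 0.07, neither called. The small MAF protein MAFF had the lowest value of the list, -0.61 ± 0.16 (adjusted p = 0.0661).

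**Figure D2:**
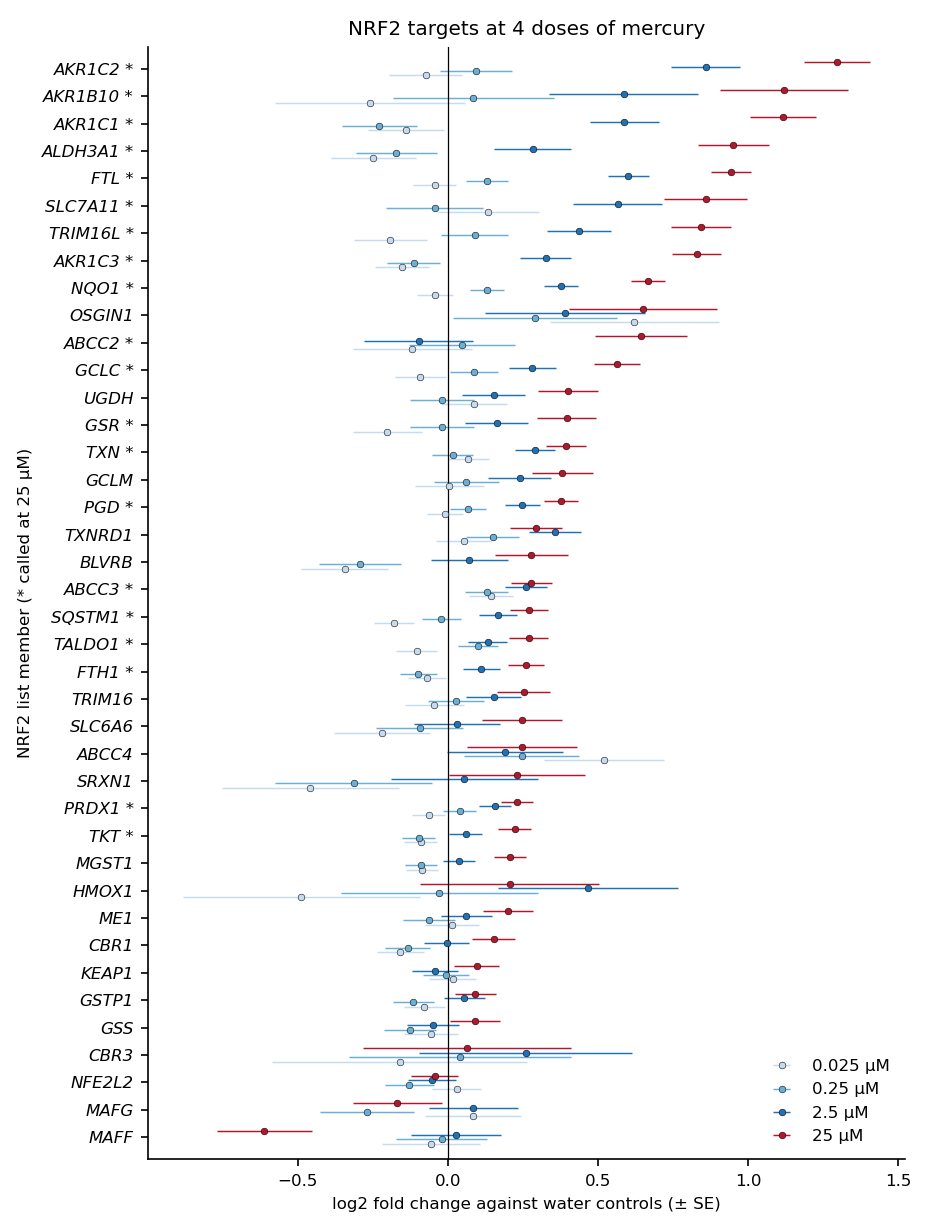
log2 fold change (± SE) of tested NRF2 list members against the water controls at the 4 doses; a star marks members called at 25 µM. The starred genes run from 0.22 to 1.295 at 25 µM, and 4 of them (FTL, NQO1, AKR1C1 and AKR1C2) were also called at 2.5 µM.

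Beyond that list, 19 genes rose. TIMP1, an inhibitor of matrix metalloproteinases, had 1576 to 1820 CPM in the controls of set 1 and 870 to 1164 CPM in those of set 2. The 25 µM libraries had 2356, 2151, 1584 and 1684 CPM, above the controls of the set in each case, a change of 0.53 ± 0.06 (edgeR adjusted p = 2.81e-10). EPHX1, an epoxide hydrolase, rose by 0.50 ± 0.07, PTGR1, a prostaglandin and alkenal reductase, by 0.66 ± 0.10, ASPH, an aspartate hydroxylase, by 0.46 ± 0.07 and TM4SF1, a membrane protein, by 0.44 ± 0.07. For these 4 genes all 4 libraries were above the controls of their set. DDB2, a DNA damage recognition protein of the p53 list, rose by 0.56 ± 0.13 (adjusted p = 0.0341) with 2 of 4 libraries above the controls of their set. Among the other 13, named after their values were seen, were the carboxylesterase CES1 (0.81), PIR (0.45), AKR1B1 (0.31) and FTLP3 (1.14), a pseudogene of FTL whose reads cannot be told apart from those of FTL with certainty. Over all genes tested, 0.301% had all 4 libraries at 25 µM above every control of their own set and 0.0939% had all 4 below. At 2.5 µM these shares were 0.175% and 0.0188%.

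RefSeq promoters (GRCh38.p14, 250 bases before to 50 after the start of the gene) were searched on both strands for the core of the antioxidant response element to which NRF2 binds, TGACNNNGC. Of the 21 NRF2 list members that rose, 12 had a promoter entry and 1 of these held the core (8.33%), and of the 19 others that rose, 4 of 15 did (26.7%). Over the whole NRF2 list, 11 of the 30 genes with an entry held it (36.7%). The core was in 16.1% of all 27305 promoters. The stretches of PGD and EPHX1 are shown with the core in capitals, because both genes rose, together with the element of MT2A, which was not called. PGD holds the core on the opposite strand at chr1:10398853-10398881, EPHX1 on its own strand at chr1:225825266-225825294, and MT2A on its own strand at chr16:56608470-56608498, each on the plus strand of the genome.
PGD: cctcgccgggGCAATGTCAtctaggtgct
EPHX1: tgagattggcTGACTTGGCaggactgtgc
MT2A: gagccgcaagTGACTCAGCgcggggcgtg
These matches describe the letters in the window and were not tested for binding.

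Among selenoproteins, SELENOW fell. SELENOW (chr19:47778572-47784686) codes for a small selenoprotein with a thioredoxin-like fold and was the 1 gene of 25 tested in this list to be called, with 0.132% of all genes tested lower. The controls of set 1 had 124 to 166 CPM (median 147) and those of set 2 had 78.3 to 164 CPM (median 135). At 25 µM the libraries had 75.3, 61.6, 67.4 and 86.1 CPM. The first 3 were below every control, and replicate 4 lay above control 15. The fitted change was -0.94 ± 0.10 (edgeR adjusted p = 3.65e-10), which is 1.92-fold lower, and it was -1.10 in set 1 and -0.75 in set 2. No lower dose showed it: at 2.5 µM the 4 libraries had 151, 144, 122 and 123 CPM and the fitted change was -0.03 ± 0.09.

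The other selenoproteins did not pass the test. The glutathione peroxidases GPX1 and GPX4 were at -0.05 ± 0.07 and 0.11 ± 0.08, and GPX3 at -0.97 ± 0.52. SELENON, a selenoprotein of the endoplasmic reticulum, was at -0.46 ± 0.15, and its controls ran from 8.66 to 49.5 CPM. The median over the list was 0.01. SECISBP2, which binds the selenocysteine insertion element of the messages, was at 0.48 ± 0.14 and was not called.

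Metallothioneins did not pass the test at any dose. Of the 11 genes of that list, MTF1 included, 6 were tested. At 25 µM 3 of these had an unadjusted p under 0.05, 2 higher and 1 lower, and edgeR and DESeq2 each called 0. Over all 15966 genes tested at 25 µM, edgeR called 0.382%, and 1343 had an unadjusted p under 0.05. At 0.025 µM 4 of the 6 had such a p, 3 higher and 1 lower. At 0.25 and at 2.5 µM 2 of the 6 had one, both higher. Over all genes tested, 1125, 1165 and 1074 had such a p in edgeR at these 3 doses. MT2A (chr16:56608199-56609497), the most abundant, had 7918 to 10758 CPM in the controls of set 1 and 3106 to 4998 CPM in those of set 2. The libraries at 25 µM had 10902, 9487, 5134 and 6296 CPM. The second was inside the range of its controls and the other 3 were above it, with a fitted change of 0.27 ± 0.08 (edgeR adjusted p = 0.22). MT1E was at 0.24 ± 0.09 and MT1X at 0.00 ± 0.14, and reads of these near-identical genes cannot be divided among them with certainty. At 0.025 µM MT2A had 8644, 8576, 6138 and 6167 CPM. The difference between 25 µM and the lower doses was not called (0.02 ± 0.09, edgeR adjusted p = 0.978). In RefSeq promoters the metal response element cores TGCACNC and TGCGCNC were in 4 and 3 of the 5 metallothionein list genes with an entry, against 14.4% and 23% of all promoters. The promoter of MT2A held TGCACNC at several places, and the stretch at chr16:56608520-56608546 shows 1 of them in capitals, because MT2A carries the element and was not called.
MT2A: gcggggctttTGCACTCgtcccggctc
Metal transport genes had 0 of 23 called at 25 µM against the controls (2 with an unadjusted p under 0.05, 0 called by DESeq2). SLC30A1, the zinc exporter under MTF1, was at -0.18 ± 0.12.

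Heat shock and endoplasmic reticulum chaperone genes did not pass it either. Of 21 heat shock genes tested 0 were called by edgeR or DESeq2 and 4 had an unadjusted p under 0.05, 3 higher and 1 lower. Over all 15966 genes tested at 25 µM, these were 0.382% called by edgeR and 1343 with such a p. HSPA1A, the inducible HSP70, had 18.5, 23.5, 23.8 and 39.6 CPM at 25 µM, against 15.6 to 20.9 CPM in the controls of set 1 and 11.9 to 49.997 CPM in those of set 2. DNAJB1 was at 0.03 ± 0.07 and HSPA8 at 0.03 ± 0.04. The heat shock element, searched on both strands as 3 GAA units in alternating orientation with a gap of 2 bases, was in the promoters of 7 of 19 genes of this list and in 0.608% of all promoters. Of 16 endoplasmic reticulum chaperones 0 were called by either tool, with 2 at an unadjusted p under 0.05. Of 24 ATF4 targets edgeR called 1, SLC7A11, and DESeq2 called 2, SLC7A11 and the amino acid transporter SLC7A5, while DDIT3 was at 0.23 ± 0.24 and ASNS had 0 to 2.21 CPM in every library at 25 µM and every control. Interferon genes (18 tested) had 0 called by either tool and 2 with an unadjusted p under 0.05, and genes of the mitochondrial genome (13 tested) had 0 and 1.

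**Figure D3:**
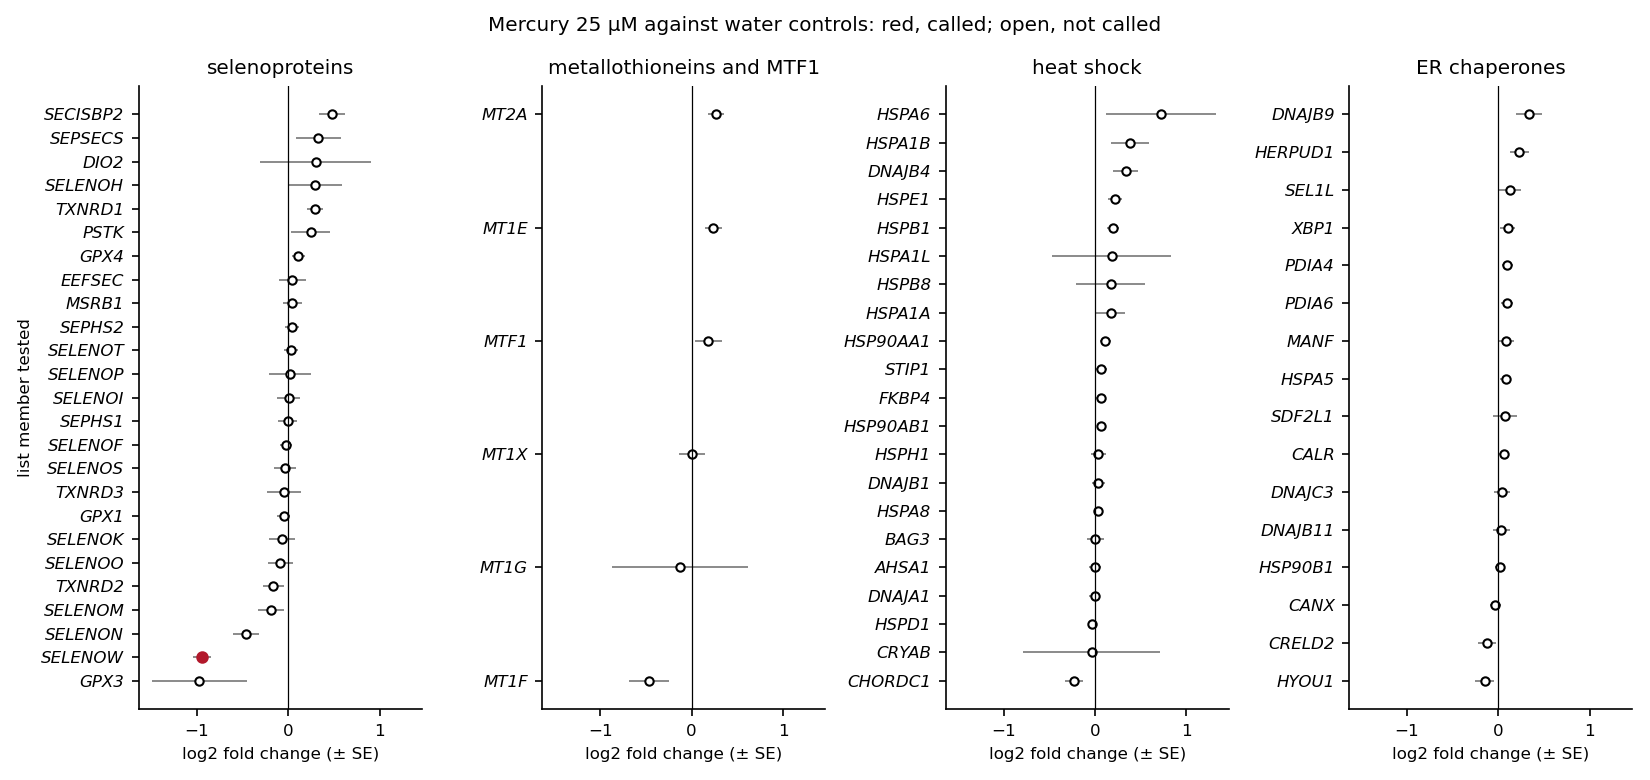
log2 fold change (± SE) of each tested selenoprotein, metallothionein list, heat shock and endoplasmic reticulum chaperone gene at 25 µM mercury against the water controls. SELENOW, at -0.94, is the 1 filled point, and all other points are open, that is, not called.

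Of the 21 genes that fell at 25 µM, SUSD2 had the smallest p after SELENOW. SUSD2, a cell surface sushi domain protein, had 29.4 to 39.7 CPM in the controls of set 1 and 16.95 to 24.8 CPM in those of set 2. At 25 µM it had 20.8, 19.4, 8.36 and 6.98 CPM, below the controls of the set in each case, a change of -1.08 ± 0.17 (edgeR adjusted p = 3.72e-05). FBXO9, a ubiquitin ligase subunit, had 62.9 to 79.3 CPM in the controls of set 1 and 39.7 to 63.2 CPM in those of set 2. Its 25 µM libraries had 52.8, 47.9, 30.4 and 25.6 CPM, again all below, a change of -0.61 ± 0.10 (adjusted p = 0.000166). MCM7, a subunit of the replicative helicase, fell by 0.34 ± 0.07 on the log2 scale, with all 4 libraries below the controls of their set. It was the 1 gene of 30 called in the list of mitosis and replication genes, whose median was 0.03, and the proliferation marker MKI67 was at -0.01 ± 0.07. SMOX, spermine oxidase (-0.49 ± 0.10), ALDH1A3, a retinaldehyde dehydrogenase (-0.78 ± 0.16), and CDH3, P-cadherin (-0.40 ± 0.10), had all 4 libraries below the controls of their set. KRT17, a basal keratin, fell by 0.37 ± 0.08 with 3 of 4 below. KRT17 and CDH3 are basal mammary markers, and all 9 genes of that marker list lay below 0 at 25 µM, with a median of -0.21. Of these 9, 2 were called lower by edgeR and by DESeq2 and 4 had an unadjusted p under 0.05. The 4 luminal markers tested also lay below 0, with a median of -0.06, and neither tool called any, 1 having an unadjusted p under 0.05. Of the fibroblast markers 2 were tested, and both were lower with such a p, while neither tool called them. Of all 15966 genes tested, edgeR called 0.132% lower and 1343 had an unadjusted p under 0.05 in either direction. Their median was -0.0038. The part of the markers in the other changes was not tested. NCOA7 (-0.47 ± 0.09), RIPK4 (-0.61 ± 0.14), STC1 (-0.68 ± 0.15) and CA2, a carbonic anhydrase (-0.88 ± 0.20), fell with 2 or 3 of 4 libraries below. SERPINB3, a protease inhibitor with a near-identical neighbour (SERPINB4) that shares reads with it, fell by 1.88 ± 0.42 from 0 to 15.3 CPM in the controls to 0 to 3.03 CPM. Of these, the calls of MCM7, CDH3, SMOX, ALDH1A3, KRT17, NCOA7, RIPK4, STC1, CA2 and SERPINB3 were lost without replicate 3 of every dose (adjusted p 0.0610 to 0.153).

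Some secreted and inflammatory genes fell at 25 µM. S100A8 and S100A9, the subunits of calprotectin, differed between the sets of controls far more than with dose. S100A8 had 736 to 1095 CPM in the controls of set 1 and 8.39 to 35.4 CPM in those of set 2, and 507, 513, 5.37 and 8.38 CPM at 25 µM. All 4 were below the controls of their set, as were 2 of 4 for S100A9, and the fitted changes were -0.93 ± 0.22 for S100A8 (edgeR adjusted p = 0.0243) and -0.88 ± 0.20 for S100A9 (adjusted p = 0.0219). IL1B, the cytokine interleukin 1 beta, had 39.4 to 72.0 CPM in the controls of set 1 and 18.5 to 66.0 CPM in those of set 2. Its libraries at 25 µM had 31.997, 33.99, 16.7 and 18.4 CPM, a change of -0.98 ± 0.25 (adjusted p = 0.047). C3, a complement component made by epithelia, fell by 0.46 ± 0.09 (adjusted p = 0.00282) from 727 to 830 CPM and 316 to 500 CPM in the controls of the sets to 697, 616, 202 and 282 CPM. DESeq2 called none of IL1B, S100A8 and S100A9. Without replicate 3 of every dose all 4 genes lost their call (adjusted p = 0.473 for IL1B, 0.153 for S100A8, 0.180 for S100A9 and 0.268 for C3), and IL1B also lost it without replicate 1 (0.0569) and without control 16 (0.0662).

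**Figure D4:**
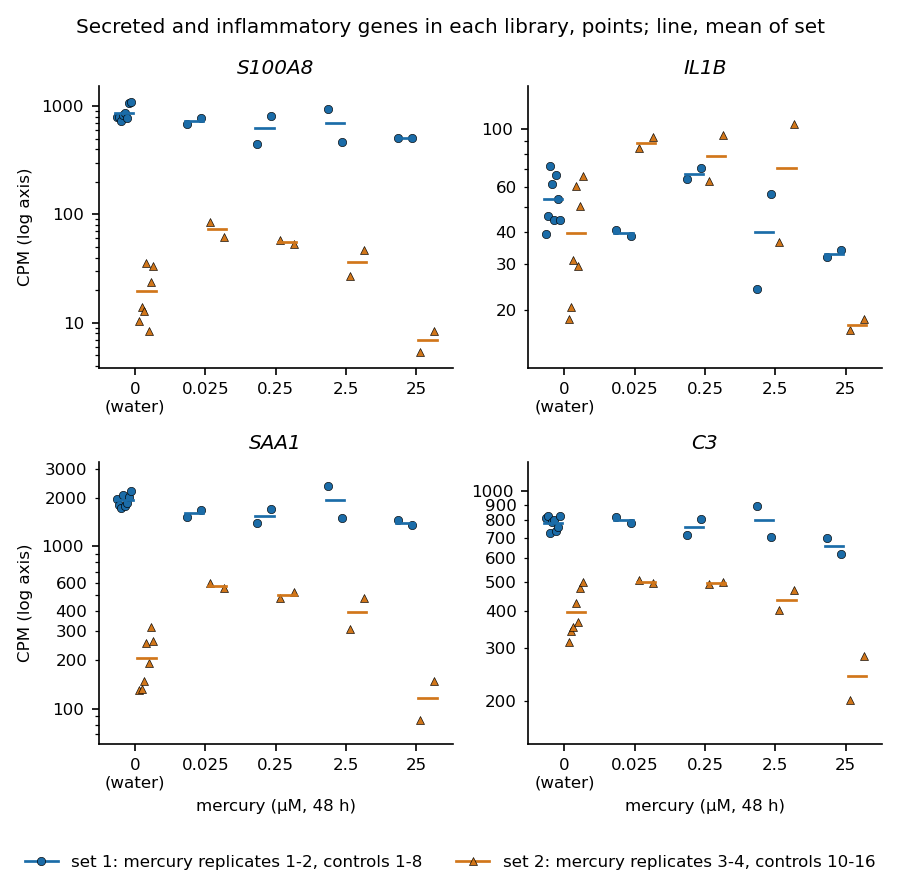
CPM of S100A8, IL1B, SAA1 and C3 in each library (log axis) against the mercury dose in µM, with set 1 as circles, set 2 as triangles and the mean of each set as a line. The sets lie apart for S100A8 and SAA1 at every dose, and in set 2 the libraries at 0.025 and 0.25 µM lie above those at 25 µM for all 4 genes.

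The list of 17 cytokine and acute phase genes tested had 1 lower at 25 µM against the controls (IL1B), with a median of -0.53. DESeq2 called 0 there, and 9 had an unadjusted p under 0.05, all lower. Over all 15966 genes tested in that comparison, edgeR called 0.132% lower, and 1343 had such a p in either direction. Against the 3 lower doses, a comparison that uses no control, 7 were lower: SAA1 (-1.08 ± 0.21), IL1B (-1.35 ± 0.24), SAA2 (-1.01 ± 0.23), IL1A (-0.75 ± 0.17), CXCL2 (-0.86 ± 0.19), CXCL1 (-1.08 ± 0.26) and CXCL8 (-0.94 ± 0.23). The median was -0.86, against 0.00 over all genes tested, of which 0.188% were lower and 0.457% called in either direction. Within set 1 alone the median of this comparison was -0.16 and no member passed, and within set 2 alone it was -1.83 and 11 passed. DESeq2 called 3 over both sets. Without replicate 3 of every dose none of the 7 kept its call, and without replicate 4 the list had 2 lower. At 0.025, 0.25 and 2.5 µM against the controls, 4, 6 and 6 of the 17 had an unadjusted p under 0.05, all higher. Neither tool called a member there, and 1125, 1165 and 1074 of all 15966 genes had such a p in edgeR. The comparison with the lower doses thus does not measure a fall below the controls alone. SAA1, serum amyloid A, showed the pattern in its levels. Set 2 had 131 to 319 CPM in the controls, 594 and 553 at 0.025 µM, 482 and 526 at 0.25 µM, 309 and 485 at 2.5 µM and 85.7 and 148 at 25 µM. In set 1 the controls had 1719 to 2190 CPM and the 25 µM libraries 1457 and 1350. SAA1 and SAA2 are near-identical and may share reads.

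The 6 genes called at 2.5 µM included FTL, AKR1C2, NQO1, AKR1C1 and HMGCS1. AKR1C2 had 830, 874, 563 and 972 CPM, all above the controls of the set, a change of 0.86 ± 0.11 (edgeR adjusted p = 3.56e-06) that was 0.31 in set 1 and 1.496 in set 2. NQO1 had 707, 774, 867 and 1027 CPM, also above all controls of the set, a change of 0.38 ± 0.06 (adjusted p = 5.17e-05). AKR1C1 rose by 0.59 ± 0.12 (adjusted p = 0.0108). HMGCS1, an early enzyme of sterol synthesis, had 98.1, 137, 177 and 130 CPM against 132 to 164 CPM and 202 to 233 CPM in the controls, a change of -0.45 ± 0.08 (adjusted p = 0.00452) that lost its call without replicate 1 and without replicate 4, as did that of AKR1C1. All of the 17 sterol synthesis genes tested lay below 0 at 2.5 µM, with a median of -0.21 against 0.01 over all genes tested. Of these edgeR called 1 and DESeq2 8, and 14 had an unadjusted p under 0.05, all lower. Over all 15966 genes tested at 2.5 µM, edgeR called 6 (0.0376%) and DESeq2 33, and 1074 had such a p in edgeR. The list's medians were -0.19, -0.16 and -0.13 at 0.025, 0.25 and 25 µM, and these comparisons share their controls. At these doses 12, 8 and 7 members had an unadjusted p under 0.05, all lower. Over all genes tested 1125, 1165 and 1343 had one in edgeR. DESeq2 called 4 members at 0.25 µM, where it called 12 over all genes, and edgeR called 0. In the trend over the doses, which uses no control, the list had a median of 0.01 and no member passed. The NRF2 list had medians of -0.07 and -0.02 at 0.025 and 0.25 µM and of 0.16 at 2.5 µM. At 2.5 µM 4 of its 41 were called by edgeR and 9 by DESeq2, of 6 and 33 over all genes tested.

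A linear trend over the 4 doses, on the scale of log dose and without the controls, was called for 71 genes (0.445%), 40 rising and 31 falling. It overlaps with the 25 µM comparison in the libraries it uses. FTL rose by 0.34 ± 0.03 per 10-fold step in dose (log2 scale, edgeR adjusted p = 1.32e-13), NQO1 by 0.24 ± 0.02, AKR1C2 by 0.49 ± 0.05, AKR1C1 by 0.46 ± 0.05, AKR1C3 by 0.34 ± 0.03, TIMP1 by 0.22 ± 0.02, TRIM16L by 0.34 ± 0.04 and ALDH3A1 by 0.41 ± 0.05. Of the NRF2 list 21 members had a rising trend and 0 a falling one. These 21 included MGST1, a membrane glutathione transferase (0.10 ± 0.02), and BLVRB, a biliverdin reductase (0.22 ± 0.05), which edgeR did not call at 25 µM against the controls, where DESeq2 called MGST1. SELENOW fell by 0.29 ± 0.04 per step, though its values were those of a drop at the highest dose alone. FBXO9 fell by 0.28 ± 0.04, KRT17 by 0.18 ± 0.03, SUSD2 by 0.38 ± 0.07, C3 by 0.20 ± 0.03, NCOA7 by 0.19 ± 0.04, CYP1B1, a target of the aryl hydrocarbon receptor, by 0.17 ± 0.03 and DUSP6, a feedback phosphatase of ERK signalling, by 0.22 ± 0.04. Without replicate 3 of every dose the trend was called for 22 genes, and without replicate 4 for 39.

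Setting 25 µM against the mean of the 3 lower doses called 73 genes (0.457%), 43 higher and 30 lower. FTL (0.71 ± 0.07), NQO1 (0.51 ± 0.06), ALDH3A1 (0.997 ± 0.12) and SELENOW (-0.92 ± 0.10) passed in all 14 alternatives of this comparison. Of the NRF2 list 19 members were higher and 0 lower, with a median of 0.27. CDKN1A, the p53 target that codes for the cell cycle inhibitor p21, had 243, 216, 250 and 245 CPM at 25 µM, each above the controls of its own set. In set 2 both were also above the lower doses, while in set 1 replicate 2 lay just below the 0.25 µM replicate 1, at 218 CPM. CDKN1A was called here (0.38 ± 0.08, edgeR adjusted p = 0.00609) and not against the controls (0.29 ± 0.08, adjusted p = 0.0875). Of 23 metal transport genes edgeR called 2 in this comparison, 3 had an unadjusted p under 0.05 and DESeq2 called 0. SLC39A8, which carries zinc, manganese and cadmium, was lower (-0.67 ± 0.15), with 449, 540, 99.0 and 126.5 CPM at 25 µM, and the difference was -0.17 in set 1 and -1.296 in set 2. SLC39A10, a zinc importer, was higher (0.47 ± 0.11), at 47.7, 54.7, 52.8 and 64.4 CPM. The count of this comparison was 14 without replicate 3 of every dose and 32 without replicate 4.

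The 25 µM effect itself differed between the sets for 4 genes of 15966 (0.0251%, edgeR interaction test), 3 with a larger effect in set 2 (0.0188%) and 1 with a smaller one (0.00626%). It was larger in set 2 for AKR1C2, by 0.94 ± 0.15 on the log2 scale (adjusted p = 0.000614), for FTL, by 0.57 ± 0.11, and for GPC1, a glypican, by 1.16 ± 0.24. For MIR205HG, the host transcript of a microRNA, the difference was -0.80 ± 0.14. None of these 4 calls passed in all 10 alternatives of this comparison. For FTL the 25 µM libraries of both sets had like levels, 2252 to 2723 CPM, while the controls of set 1 were higher than those of set 2.

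Direct comparison with copper and lead, given at the same dose in the same solvent, time and plate, asked how mercury stood among them. In a fit over the 93 libraries of the plate, 1182 of 24295 genes (4.87%) differed between mercury and copper at 25 µM, 522 higher (2.15%) and 660 lower (2.72%) in mercury, and 610 (2.51%) between mercury and lead, 281 higher (1.16%) and 329 lower (1.35%). Both comparisons use the same 4 mercury libraries. The count against copper was 456 without replicate 1 of each metal and 528 without replicate 2, and that against lead was 265, 336, 402 and 375 without replicates 1 to 4 in turn. Of the 42 NRF2 list members tested, 2 were higher and 18 lower in mercury than in copper, and 0 were higher and 21 lower than in lead. The list's medians were -0.36 and -0.40, and those of all genes tested were 0.00 in both.

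HMOX1 showed one of the widest gaps. In this fit it had 6.18, 4.25, 5.99 and 1.60 CPM in mercury, 39.8, 38.8, 6.30 and 6.25 CPM in copper and 24.8, 15.3, 16.3 and 13.4 CPM in lead. The difference was -2.27 ± 0.41 from copper and -1.87 ± 0.44 from lead (edgeR adjusted p = 3.47e-05 and 0.00445), the copper libraries of set 2 were close to the mercury ones, and the difference from lead lost its call without replicate 1. SLC7A11 had 36.05, 38.8, 85.2 and 74.9 CPM in mercury, 127 to 149 CPM in copper and 157 to 214 CPM in lead, with no overlap. Its differences were -1.32 ± 0.19 and -1.69 ± 0.19. TXNRD1 was lower in mercury by the same amount against either metal (-0.86 ± 0.12 in each), and GCLM was at -0.89 ± 0.12 and -0.72 ± 0.12. SQSTM1 (-0.99 ± 0.10 and -1.02 ± 0.10), NQO1 (-0.54 ± 0.09 and -0.47 ± 0.09), OSGIN1, a growth inhibitor induced by oxidative stress (-1.497 ± 0.24 and -1.32 ± 0.24), and FTL (-0.56 ± 0.11 and -0.75 ± 0.11) were lower as well. The FTL difference from copper lost its call without replicate 2.

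Among the list members that did not follow, ALDH3A1 was higher in mercury than in copper, with 225, 167, 267 and 207 CPM against 148, 140, 158 and 114 CPM (0.64 ± 0.16, edgeR adjusted p = 0.00433), and was at 0.49 ± 0.16 against lead, not called. SELENOW was lower in mercury than in either metal. It had 74.1, 60.6, 66.9 and 84.6 CPM in mercury, 107 to 129 CPM in copper and 117 to 144 CPM in lead, without overlap, and the differences were -0.73 ± 0.11 and -0.91 ± 0.11, called in all 10 alternatives of both comparisons. MT2A was not called against copper (-0.14 ± 0.12) and was lower than in lead (-0.40 ± 0.12, adjusted p = 0.0363), a call lost without any 1 of the 4 replicates. Among heat shock genes 1 was lower than in copper, and 1 was higher and 1 lower than in lead, of 21 tested. Over all genes tested 4.87% were called against copper and 2.51% against lead. An unadjusted p under 0.05 was found for 7 of the 21 in each comparison. Of all 24295 genes tested, 3476 had such a p against copper and 2974 against lead.

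**Figure D5:**
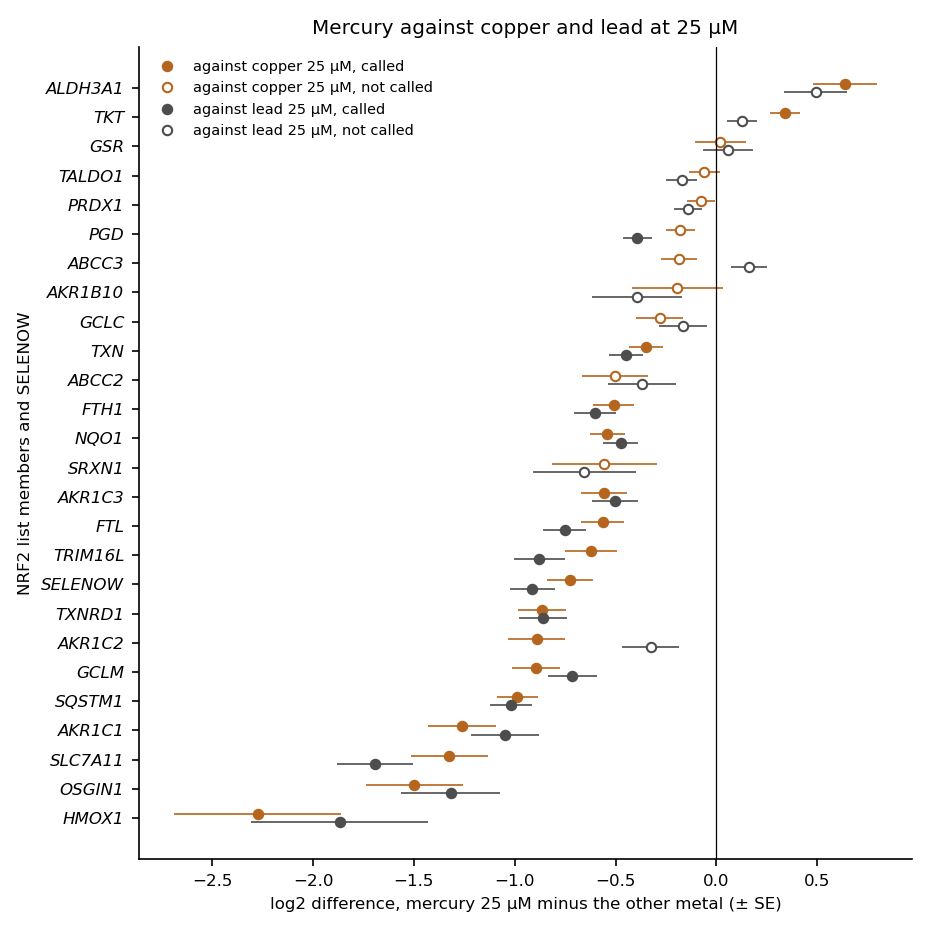
log2 difference (± SE) between mercury and copper or lead, each at 25 µM, for members of the NRF2 list that rose with mercury, 5 further members and SELENOW; filled points were called. Most points lie below 0, from -2.27 for HMOX1 against copper, while ALDH3A1 lies at 0.64 and TKT at 0.34 against copper.

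By the rule for named genes, those that separated mercury from copper with the smallest p were higher in mercury for DHRS3, a retinaldehyde reductase (3.75 ± 0.24), IGFBP6, an IGF binding protein (1.19 ± 0.11), SULT1E1, an estrogen sulfotransferase (3.56 ± 0.35), FBXO32, a ubiquitin ligase subunit (2.04 ± 0.20), and STRA6, a retinol transporter (3.24 ± 0.35). The genes lower in mercury were the EGFR ligands EPGN (-2.14 ± 0.18) and AREG (-1.47 ± 0.13), the immediate early factor EGR1 (-1.82 ± 0.16), the laminin chain LAMB3 (-1.98 ± 0.17) and KRT17 (-2.18 ± 0.20). None of these 10 genes except KRT17 was called in mercury against its controls. Against lead they were SCNN1G, a sodium channel subunit (1.42 ± 0.16), ERRFI1, an inhibitor of EGFR (1.09 ± 0.14), RIPOR2 (2.29 ± 0.31), ARID5B (1.27 ± 0.18) and EFNA1, an ephrin (1.09 ± 0.15), higher in mercury. ALAS1, the first enzyme of heme synthesis (-1.42 ± 0.13), SQSTM1, FHL2 (-1.15 ± 0.12), SLC7A11 and MYL9, a myosin light chain (-1.72 ± 0.21), were lower. ALAS1 had 37.002 to 47.008 CPM in mercury and 109 to 114 CPM in lead.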

How the data were processed

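Gene counts were deposited as whole numbers per gene symbol, 34718 symbols in each library, and 92.5% of the symbols matched a GENCODE v29 gene name. The submitters' processing notes name STAR, featureCounts, FastQC, MultiQC and GRCh38. For the annotation, the strand setting and any filter on reads, the value is not given in the sources used here. Control 9 was not analysed here.

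The deposited counts of 31 libraries were fitted in R 4.3.3 with edgeR 4.0.16 (TMM scaling, filterByExpr with a minimum count of 10 and a minimum total of 15, quasi-likelihood test, Benjamini-Hochberg adjustment), with a term per dose and a term for the set, leaving 25 residual degrees of freedom. The interaction with the set was a second fit, and copper and lead were compared in a fit over 93 libraries of the plate. These included libraries of arsenic and cadmium, which shared the estimate of the spread. A standard error is the log2 fold change divided by the square root of F. DESeq2 1.42.0 was an alternative, and the fitting code was tested on simulated data.

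The members and gene lists were chosen with earlier results of these data known. Genes named are called genes with the smallest p (15 per direction at 25 µM, 8 for the trend, 5 for the other comparisons, for the metals only where the average log2 CPM reached 3), called members of the lists, and 20 stress and metal genes whatever their values. Other genes were named after their values were seen, and this covers list members given as not called. Libraries with the same replicate number deviated together from their dose means (r 0.36 to 0.66 over 24 pairs), as did other numbers of the same set (0.30 to 0.58). After the set means were removed, r was -0.04 to 0.26. The replicate number was therefore added as a block in an alternative fit. The shallowest library, at 1.93 M counts, limits the precision for genes of low level. Some genes are not reported here by name, in the text or in the plots.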

Additional observations from a re-analysis of the deposited data

Results flagged for a closer look

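The effect of 25 µM mercury differed between the sets by an interaction test for 4 genes, with set 2 minus set 1 at 0.94 for AKR1C2, 0.57 for FTL, 1.16 for GPC1 and -0.80 for MIR205HG on the log2 scale. GPC1 had 41.6 and 38.8 CPM in set 1 and 96.4 and 98.7 CPM in set 2 at 25 µM, against 38.8 to 64.2 CPM and 43.7 to 60.7 CPM in the controls of the sets.

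Among the 66 groups of libraries tested for a library far from the others, 2 had one, and chance alone gives about 1 in 20 groups. CA2 had 10.4 CPM in replicate 1 at 25 µM, while the other 3 libraries had 14.9 to 15.7 CPM. Control 1 had 12.6 M counts, the lowest total of the controls of set 1.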

How the results depend on the processing

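Counts of called genes are given in the order 0.025, 0.25, 2.5 and 25 µM, trend, and 25 µM against the lower doses, where they moved by more than 1.5 times, and the cause was not tested. Without a filter on low counts they were 24, 38, 59, 109, 108 and 122, with 18 for the interaction with the set. Without the term for the sets they were 0, 16, 11 and 5 from 2.5 µM on, with 366 against copper and 101 against lead. DESeq2 gave 7, 12 and 33 at the 3 lower doses and 1 for the interaction, and RLE scaling gave 2 for the interaction. With every library thinned to 1.93 M counts they were 1, 1, 14, 24 and 20, leaving out 2.5 µM, and 1 for the interaction. Set 1 alone gave 1, 1, 1, 29, 15 and 12. Set 2 alone gave 91, 88 and 233 at the 3 lower doses and 62 at 25 µM, the fewest of the 4 doses. In that set every control was shallower than every mercury library. A fit of the 2 groups alone gave 1108 against lead.

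Leaving out 1 replicate number or control 16 gave 0 to 1, 0 to 4, 3 to 18, 27 to 57, 22 to 71 and 14 to 77 calls in that order, 1 to 5 for the interaction, 456 to 1060 against copper and 265 to 402 against lead. Control 16 was chosen for this after its values were seen, and without it 0.025 µM had 1 call. With the replicate block 0.25 µM had 2 calls and no other count moved by more than 1.5 times. Of the named calls, GSR at 25 µM and CHAC1 and SELENOH against copper were lost under the block. The trend of SLC7A11 changed sign in the thinned libraries (-0.0060 per 10-fold step, adjusted p = 0.999).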
